A study of Rattus norvegicus with 6 samples.

Results

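The liver disposes of surplus amino acids, and 39 of its genes for this work were examined: 8 enzymes and mitochondrial carriers of the urea cycle and 31 enzymes that take amino acids apart. They were chosen by name, with earlier results of these data known, and all 39 names matched a row of the deposited table of 30957 genes. The livers came from female Sprague Dawley rats bought at 3 weeks of age, and every rat was first made pseudo germ-free with 3 courses of 7 days of ampicillin, neomycin, metronidazole and vancomycin in the drinking water. The rats then received faecal microbiota by gavage for 14 days, either from donors injected with phosphate buffered saline (t-PBS, n = 3 livers) or from donors injected with dehydroepiandrosterone, an androgen precursor used to induce a PCOS-like state (t-DHEA, n = 3 livers). No recipient was itself injected with the hormone, and both groups carried the same antibiotic history. The pellets of the donors were pooled before gavage and rats were caged in pairs, so rats of a group shared transplant material, and which rats shared a cage is not given in the sources used here. The hour of killing and the feeding state at killing are likewise not given in the sources used here.

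Breaking down an amino acid releases nitrogen as ammonia, which is toxic to the brain. Hepatocytes around the portal vein load the ammonia onto bicarbonate and pass it through the urea cycle, which runs partly in mitochondria and partly in the cytosol, while the carbon skeletons are burned or made into glucose, ketone bodies and lipid. Many of these enzymes are known to follow protein intake, fasting, glucagon, glucocorticoids and the circadian clock.

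Expression was compared in CPM, the counts scaled to library sizes adjusted by TMM factors, and tested with edgeR's quasi-likelihood test over the 12210 genes that passed its filter on low counts. The study's criteria for a differentially expressed gene were kept, namely a fold change above 1.2 together with p below 0.05 before adjustment, and "met the criteria" refers to them throughout. Between 12348511 and 14316886 fragments were counted per liver, and the groups overlapped in depth. The lowest count of any of the 39 genes in a liver was 141, so all 39 passed the filter. Counting error was at most 6.57% of the group mean (median 2.01% in t-PBS and 2.06% in t-DHEA). It exceeded the coefficient of variation between rats for 3 of the 39 genes in t-PBS (Kmo, Dbt and Amt) and for 2 in t-DHEA (Bckdhb and Amt). At 3 livers against 3, an exact two-sided permutation test of a single gene cannot go below p = 0.1, so the values of each group are given in place of such a test. The p-values measure the spread between these rats, which shared a pooled transplant within each group. Of all genes tested, 604 (4.95%) met the criteria, 240 higher in t-DHEA (1.97%) and 364 lower (2.98%). In this edgeR test no gene passed 0.05 after adjustment, against 634 below 0.05 before it. The number that passed after adjustment was 24 in DESeq2, 28 in edgeR's likelihood-ratio test and 0 or 4 in limma on FPKM with a pseudocount of 0.1 or 1, and none of these were among the 39 genes.

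The set was measured in liver tissue that showed the markers of hepatocytes. All 8 hepatocyte markers (albumin, transthyretin, transferrin and others) were above the counting floor, and their summed level lay between 95.5% and 103% of the t-PBS mean in t-PBS livers and between 102% and 111% in t-DHEA livers. None of these 8 markers met the criteria, beside 4.95% of all genes tested, and albumin alone carried most of the sum.

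Most of the 39 genes differed little between the groups. 4 of 39 (10.3%) met the criteria, 2 higher in t-DHEA (Tat and Sds) and 2 lower (Aass and Gldc), beside 4.95% of all genes tested. Shmt1 also passed 0.05 before adjustment, with a fold change just under the limit. The lowest adjusted p of any of the 39 was 0.805 (edgeR), so none stood out once all genes tested were accounted for. Among the other 35 genes, the log2 fold change ran from -0.27 to 0.28. Over all 39 the median log2 fold change of t-DHEA against t-PBS was 0.013, with 21 above 0 and 18 below, and over all genes tested it was 0.0013. The 95% interval of the fold change lay within 1.5-fold in either direction for 31 of the 39 genes and within 2-fold for 37.

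**Figure D1:**
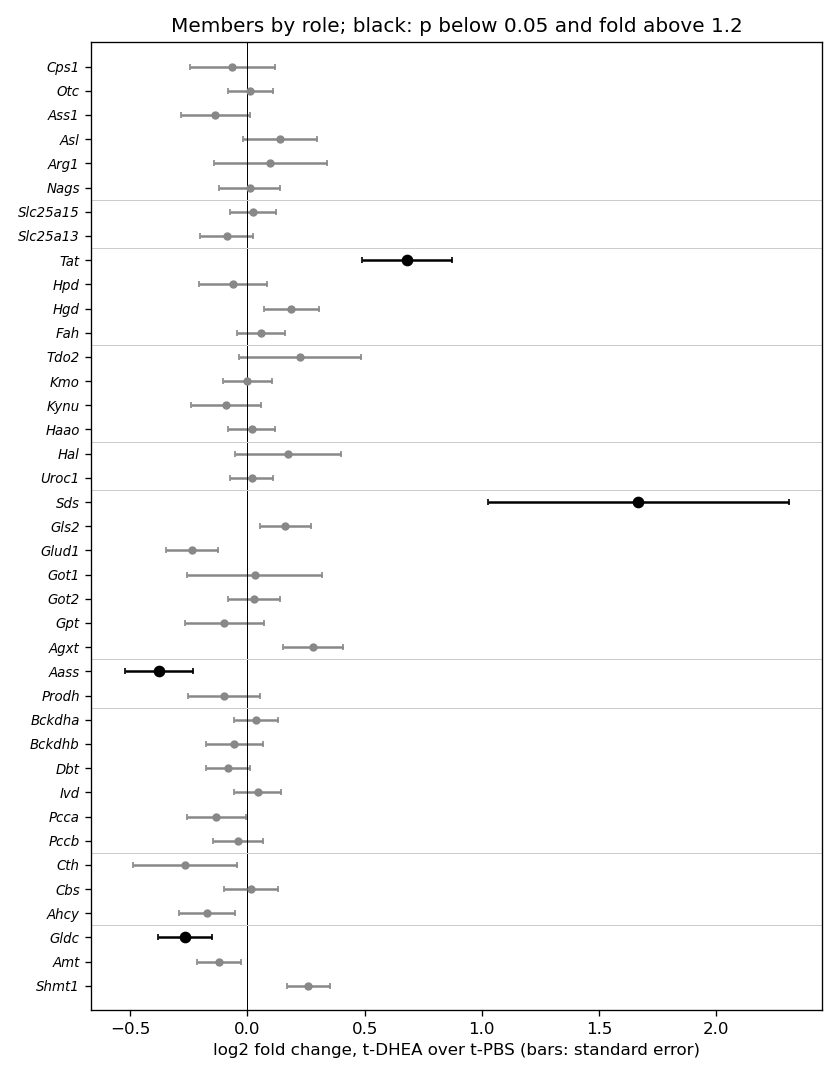
Log2 fold change of t-DHEA against t-PBS livers (x axis) for each of the 39 genes, ordered by role. Points are edgeR estimates and bars are standard errors, which are narrower than 95% intervals. Most bars include 0, Tat and Sds lie to the right, and Aass and Gldc lie to the left.

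Per gene length, these genes covered a wide range of abundance. Hpd, the dioxygenase that makes homogentisate from the keto acid of tyrosine, had the highest mean FPKM over the 6 livers, 1457. Ass1 followed at 1031 FPKM, Arg1 at 550 FPKM, Cps1 at 548 FPKM and Tdo2 at 468 FPKM. Arg1 and Cps1, neighbours in this order, differed in mean by far less than the spread of either over the livers. 17 genes had a mean above 100 FPKM. At the low end stood Sds with 18.3 FPKM, Pcca with 16.2 FPKM and Gldc with 9.94 FPKM, and the highest mean was 147 times the lowest. Together the 39 genes took between 1.55% and 1.85% of all counts in a liver.

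**Figure D2:**
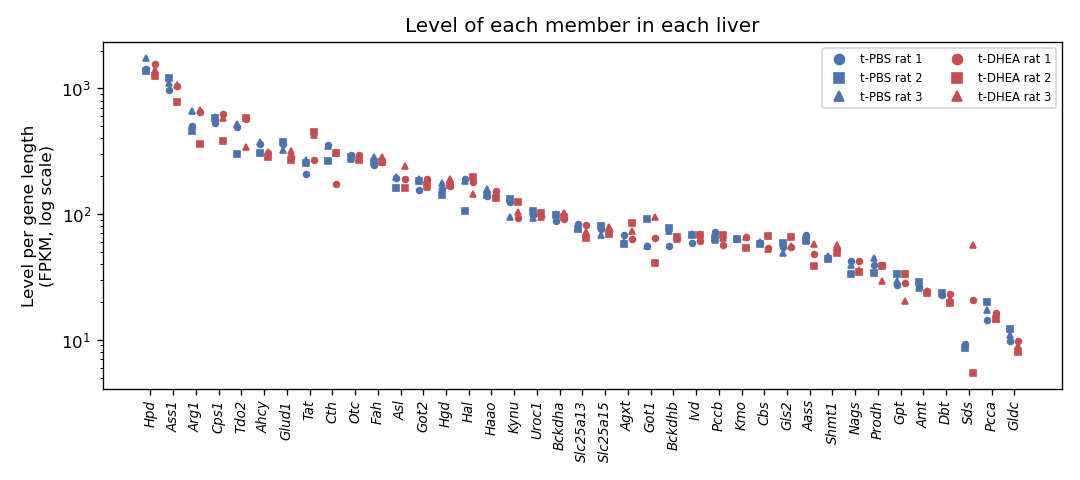
FPKM, a level per gene length, of each of the 39 genes in each liver (log scale), ordered by the mean over the 6 livers. Hpd is highest at a mean of 1457 FPKM and Gldc lowest at 9.94 FPKM; the livers of Sds are the most scattered.

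The urea cycle itself did not differ in mean between the groups beyond the spread of the rats. None of its 8 genes met the criteria, none passed 0.05 before adjustment in the edgeR test, and in all 8 the groups overlapped. Of all genes tested, 4.95% met the criteria and 10.1% had groups that did not overlap, so a count of 0 among 8 genes lies near the background and is not particular to them. The median log2 fold change of the 8 was 0.011. The widest limits of the 95% intervals of the fold change were 0.718 (Cps1) and 1.56 (Arg1), so in each of the 8 genes a change beyond these limits lay outside the interval.

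Cps1 (ENSRNOG00000013704, Rnor_6.0 chr9:74124016-74236274), the mitochondrial synthetase that commits ammonia to the cycle, measured 3407, 3546 and 3753 CPM in t-PBS rats 1, 2 and 3 and 4022.5, 2461 and 3752 CPM in t-DHEA rats 1, 2 and 3. The lowest and the highest liver were both in the t-DHEA group, so the groups overlapped completely. The log2 fold change was -0.06 (SE 0.18), with an adjusted p = 0.990 in edgeR. Nags, whose product N-acetylglutamate switches Cps1 on, measured 89.7, 67.7 and 83.2 CPM in t-PBS and 91.8, 74.5 and 75.9 CPM in t-DHEA livers. Its log2 fold change was 0.01 (SE 0.13). Otc, which joins carbamoyl phosphate to ornithine in the mitochondrion, had the narrowest range of the 39 genes. It measured 507, 469 and 470 CPM in t-PBS and 511, 465 and 483 CPM in t-DHEA livers, a 1.10-fold range over the 6 livers.

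In the cytosol, Ass1 condenses citrulline with aspartate and brings in the second nitrogen. It measured 1531, 1825 and 1710 CPM in t-PBS and 1675, 1240 and 1694 CPM in t-DHEA livers. t-DHEA rat 2 was the lowest and the other two t-DHEA livers lay inside the t-PBS range, and the log2 fold change was -0.14 (SE 0.15). Asl, which splits argininosuccinate into arginine and fumarate, measured 347, 278 and 351 CPM in t-PBS and 348, 293 and 434 CPM in t-DHEA livers, with a log2 fold change of 0.14 (SE 0.16). Arg1, the arginase that releases urea, measured 755, 657 and 982 CPM in t-PBS and 992, 549 and 1020 CPM in t-DHEA livers. Its t-DHEA livers 1 and 3 were the highest of the 6 and t-DHEA liver 2 was the lowest, so the log2 fold change of 0.10 (SE 0.24) averaged rats that lay on either side of the t-PBS range.

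Slc25a15, which exchanges ornithine and citrulline across the inner mitochondrial membrane, measured 303, 309 and 275 CPM in t-PBS and 299, 283 and 319 CPM in t-DHEA livers. Slc25a13, the citrin carrier that exports aspartate for Ass1, measured 121, 105 and 113 CPM in t-PBS and 121, 94.0 and 105 CPM in t-DHEA livers. Neither group lay apart, with log2 fold changes of 0.02 (SE 0.10) for Slc25a15 and -0.09 (SE 0.11) for Slc25a13.

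**Figure D3:**
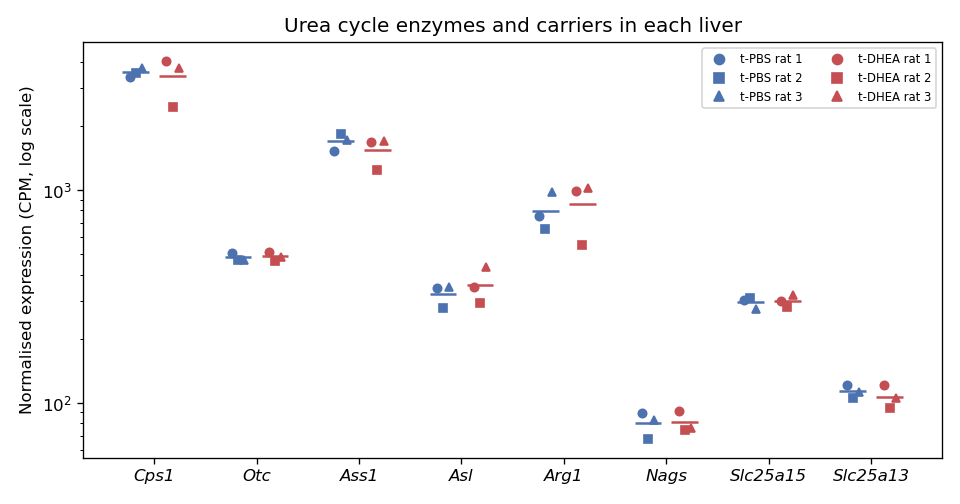
Normalised expression (CPM, log scale) of the 8 urea cycle genes in each of the 6 livers. Each point is a rat and the line is the group mean. The groups overlap for all 8 genes, and t-DHEA rat 2 is the lowest liver for Cps1, Otc, Ass1, Arg1 and Slc25a13.

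Among the urea cycle genes, Asl and Nags were lowest in t-PBS rat 2 and Slc25a15 in t-PBS rat 3. The others were lowest in t-DHEA rat 2. Cps1, Ass1 and Arg1 measured 69.0%, 73.4% and 68.7% of their t-PBS mean there, and the summed level of the 6 cycle enzymes was 73.2% of the t-PBS mean, against 110% and 107% in t-DHEA rats 1 and 3. Otc, in the same liver, was at 96.6% of its t-PBS mean. This rat was the lowest of the 6 livers for 16 of the 39 genes (41.0%), beside 18.9% of all genes tested, and the highest for 9 of the 39 (23.1%), beside 18.5% of all genes. The hepatocyte marker sum of this liver was 102% of the t-PBS mean, with 63.6% of it from albumin. Of the 8 hepatocyte markers, 5 lay below their t-PBS mean there, and Ahsg (73.5%) and Fgb (94.1%) were at their lowest of the 6 livers. Alb (105%), Tf (106%) and Serpina1 (102%) lay above their t-PBS mean in the same liver. Its red blood cell marker sum was 249% and its mesothelial marker sum 5.30% of the t-PBS mean. The periportal hepatocyte marker sum of this liver was 97.8% and the pericentral one 132% of the t-PBS mean. Of its periportal sum of 5001 CPM, 1444 CPM came from Pck1, which is also on the fasting and feeding list. The part of any of these in the low enzyme values was not tested. Without t-DHEA rat 2 the log2 fold change of Cps1 was 0.13 and that of Arg1 0.34, and neither met the criteria.

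Tat had the lowest p of the 39 genes and was higher in t-DHEA livers. Tat (ENSRNOG00000016348, Rnor_6.0 chr19:41675355-41686229) encodes tyrosine aminotransferase, the first and rate-limiting step of tyrosine breakdown and a classical glucocorticoid-induced gene of the liver. It measured 481, 561 and 621 CPM in t-PBS and 630, 1044 and 992 CPM in t-DHEA livers, means of 554 ± 70.4 and 889 ± 225 CPM (SD, n = 3). All t-DHEA livers lay above all t-PBS livers, although t-DHEA rat 1 exceeded t-PBS rat 3 only slightly. The log2 fold change was 0.68 (SE 0.19), a 1.60-fold difference with a 95% interval of 1.19 to 2.17, and the adjusted p = 0.805 in edgeR's quasi-likelihood test. Whichever liver was left out, Tat met the criteria, at a log2 fold change between 0.55 and 0.88.

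Hpd measured 2288 ± 339 CPM in t-PBS and 2191 ± 237 CPM in t-DHEA livers (SD, n = 3). Hgd, which opens the ring of homogentisate, measured 266 ± 34.0 and 302 ± 19.3 CPM. Fah, which makes fumarate and acetoacetate in the last step, measured 358 ± 28.6 and 373 ± 17.9 CPM. The groups overlapped for all 3 of these tyrosine genes, and their log2 fold changes were -0.06, 0.19 and 0.06 for Hpd, Hgd and Fah.

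Sds, the serine dehydratase that turns serine into pyruvate for gluconeogenesis, was the most variable of the 39 genes. Sds (ENSRNOG00000001388, Rnor_6.0 chr12:41620393-41627741) measured 17.9, 15.6 and 17.1 CPM in t-PBS and 40.2, 10.5 and 110 CPM in t-DHEA livers. The t-PBS rats were close together, while t-DHEA rat 2 was the lowest of the 6 livers and t-DHEA rat 3 the highest, so the groups overlapped. The means were 16.9 ± 1.14 CPM in t-PBS and 53.7 ± 51.2 CPM in t-DHEA (SD, n = 3), and the log2 fold change was 1.67 (SE 0.64; 95% interval of the fold 1.16 to 8.72; adjusted p = 0.957, edgeR). t-DHEA rat 3 decided the size: without it the log2 fold change was 0.59 and the criteria were not met, and without t-DHEA rat 2 it was 2.16. The criteria were also not met in DESeq2, in limma on FPKM or with any of the 3 t-PBS livers left out.

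Aass was lower in t-DHEA livers. Aass (ENSRNOG00000039494, Rnor_6.0 chr4:50152452-50200328) encodes the bifunctional synthase that starts lysine breakdown through saccharopine. It measured 190, 166 and 171 CPM in t-PBS and 135, 108 and 161 CPM in t-DHEA livers. No t-DHEA liver reached the lowest t-PBS liver, although t-DHEA rat 3 came close. The means were 176 ± 13.0 and 135 ± 26.7 CPM (SD, n = 3), with a log2 fold change of -0.38 (SE 0.14; adjusted p = 0.957, edgeR). The criteria were no longer met without t-PBS rat 1, t-DHEA rat 1 or t-DHEA rat 2, and without the last of these the log2 fold change was -0.24. Prodh, the first enzyme of proline breakdown, measured 125 ± 20.1 CPM in t-PBS and 117 ± 18.5 CPM in t-DHEA livers, and its groups overlapped.

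The glycine genes did not all lie on the same side. Gldc (ENSRNOG00000011599, Rnor_6.0 chr1:248297331-248377093), the decarboxylase that starts the mitochondrial glycine cleavage system, measured 44.3, 52.7 and 48.8 CPM in t-PBS and 44.7, 36.0 and 40.6 CPM in t-DHEA livers. t-DHEA rat 1 fell inside the t-PBS range and the others lay below it, and the log2 fold change was -0.27 (SE 0.12; adjusted p = 0.957, edgeR). Leaving out t-PBS rat 1 or t-DHEA rat 1 kept Gldc within the criteria, and leaving out any of the other 4 livers did not. The criteria were not met in DESeq2 or edgeR's likelihood-ratio test. Amt (ENSRNOG00000050214, Rnor_6.0 chr8:117068582-117077913), the aminomethyltransferase of the same system, measured 32.1, 33.3 and 30.9 CPM in t-PBS and 29.9, 28.7 and 30.1 CPM in t-DHEA livers. Its groups did not overlap, but its counting error (4.77% in t-PBS and 5.14% in t-DHEA) was larger than its coefficient of variation between rats (3.60% and 2.59%), and the difference was small, at a log2 fold change of -0.12 (SE 0.09).

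Shmt1 (ENSRNOG00000005275, Rnor_6.0 chr10:47031050-47059216), the cytosolic enzyme that interconverts serine and glycine and feeds folate metabolism, measured 92.4, 86.3 and 95.03 CPM in t-PBS and 109, 102 and 116 CPM in t-DHEA livers. The highest t-PBS liver lay below the lowest t-DHEA liver. The log2 fold change was 0.26 (SE 0.09; adjusted p = 0.930, edgeR), a 1.197-fold difference that lay just under the fold limit. The criteria were met without t-PBS rat 1, t-PBS rat 3 or t-DHEA rat 2.

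The share of genes with separated groups matched that of the genes at large. 2 genes lay wholly higher in t-DHEA (Tat and Shmt1), beside 4.66% of all genes tested, and 2 lay wholly lower (Aass and Amt), beside 5.42%, so 10.3% of the 39 genes had groups that did not overlap, beside 10.1% of all genes tested.

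**Figure D4:**
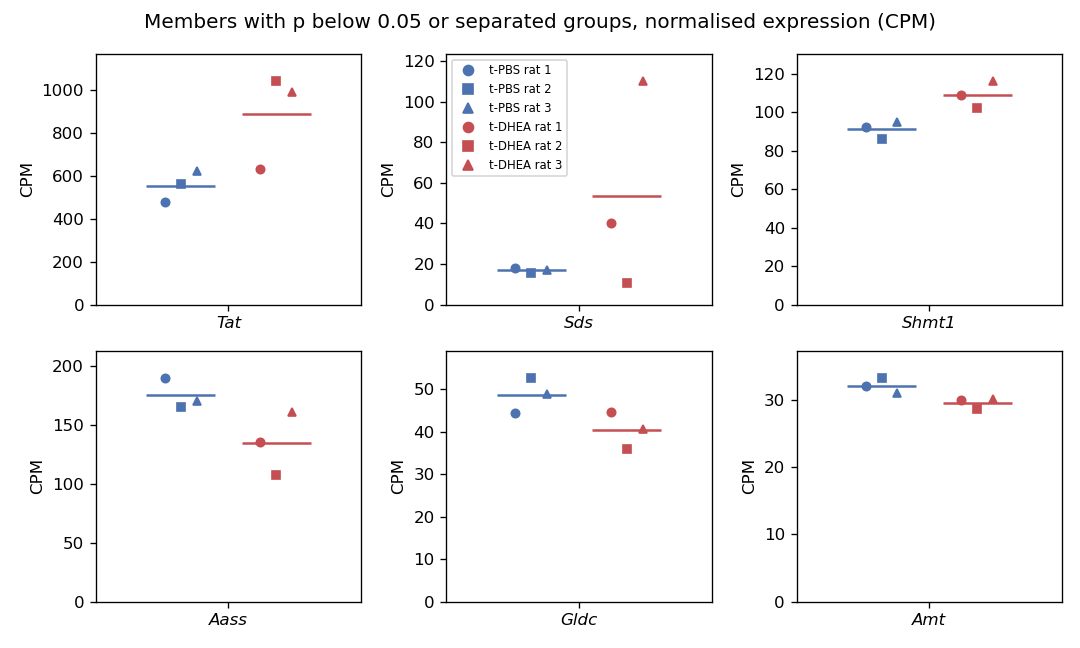
Normalised expression (CPM) in each liver for the 6 genes that passed 0.05 before adjustment or had groups that did not overlap; each point is a rat and the line is the group mean. Tat and Shmt1 lie higher and Aass and Amt lower in every t-DHEA liver, while Sds spans 10.5 to 110 CPM within the t-DHEA group and Gldc overlaps at t-DHEA rat 1.

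The promoters of 4 of these genes are shown because each passed 0.05 before adjustment and had an entry among the RefSeq sequences (assembly GRCr8), which held 33 of the 39 genes. Sds was not among the 33. Each run is the 250 bases before the start site, written 5′ to 3′ on the strand of the gene: Tat at chr19:54856354-54856603 (plus strand), Aass at chr4:52628812-52629061 (minus), Gldc at chr1:237375605-237375854 (minus) and Shmt1 at chr10:45990342-45990591 (minus). Capitals mark matches on either strand to 5 short motifs: the E-box CACGTG bound by clock and MYC-family factors, the cAMP-response core TGACG, the glucocorticoid receptor core TGTTCT, the CACCC element CCACCC bound by Krüppel-like factors, and the CCAAT box.
Tat: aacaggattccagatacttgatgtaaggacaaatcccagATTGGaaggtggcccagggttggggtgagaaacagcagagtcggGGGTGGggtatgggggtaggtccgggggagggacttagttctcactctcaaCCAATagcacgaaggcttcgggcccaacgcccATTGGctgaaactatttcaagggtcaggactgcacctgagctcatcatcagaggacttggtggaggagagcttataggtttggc
Aass: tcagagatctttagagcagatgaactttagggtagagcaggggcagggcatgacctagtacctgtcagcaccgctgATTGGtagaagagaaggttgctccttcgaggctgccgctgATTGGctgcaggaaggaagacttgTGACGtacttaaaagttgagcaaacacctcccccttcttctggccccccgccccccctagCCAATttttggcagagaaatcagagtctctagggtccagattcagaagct
Gldc: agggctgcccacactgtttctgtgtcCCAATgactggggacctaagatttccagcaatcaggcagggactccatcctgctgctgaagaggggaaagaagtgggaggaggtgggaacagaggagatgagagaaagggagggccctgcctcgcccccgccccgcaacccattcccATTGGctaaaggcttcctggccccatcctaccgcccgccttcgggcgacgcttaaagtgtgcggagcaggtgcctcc
Shmt1: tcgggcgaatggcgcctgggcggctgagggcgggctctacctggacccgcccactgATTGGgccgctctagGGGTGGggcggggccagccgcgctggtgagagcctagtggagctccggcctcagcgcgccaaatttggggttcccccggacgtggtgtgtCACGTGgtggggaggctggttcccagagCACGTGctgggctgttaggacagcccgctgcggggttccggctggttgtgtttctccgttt

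The Tat window held a CACCC element 167 bases before the start site and 3 CCAAT boxes, and no TGTTCT within these letters. Shmt1 held 2 E-boxes, 89 and 61 bases before the start site, and was the only gene of the 33 besides Cth with an E-box in this window, beside 5.59% of all 33469 promoters of the same length. Aass held a TGACG 110 bases before the start site, a motif present in 4 of the 33 genes and in 18.2% of all promoters. A CACCC element was found in 14 of the 33 (26.1% of all promoters), a CCAAT box in 21 of the 33 (34.0% of all promoters) and TGTTCT in 3 of the 33 (17.5% of all promoters). The G and C share of the 4 windows ran from 52.4% in Aass to 68.8% in Shmt1, and the median of all promoters was 51.2%. A match describes the letters only, and binding was not measured.

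The tryptophan and histidine genes varied between rats without following the groups. Tdo2, the dioxygenase that controls entry into the kynurenine route, measured 870, 509 and 905 CPM in t-PBS and 1024, 1039 and 602 CPM in t-DHEA livers. t-PBS rat 2 and t-DHEA rat 3 were both low, and the groups overlapped. Hal, the histidine ammonia-lyase, measured 405, 217 and 388 CPM in t-PBS and 395, 429 and 314 CPM in t-DHEA livers, and the same rats were the low ones of their groups. Downstream, Kmo, Kynu and Haao of the kynurenine route and Uroc1, the urocanase of histidine breakdown, had log2 fold changes between -0.09 and 0.02. Kmo measured 129 ± 2.65 CPM in t-PBS and 129 ± 14.8 CPM in t-DHEA, Kynu 209 ± 32.01 and 196 ± 30.6 CPM, Haao 181 ± 13.6 and 184 ± 12.05 CPM, and Uroc1 334 ± 15.9 and 338 ± 12.1 CPM (SD, n = 3).

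Around glutamate, where amino groups are collected and released, the enzymes lay on both sides. Glud1, the glutamate dehydrogenase that frees ammonia for Cps1, measured 1034, 1025 and 920 CPM in t-PBS and 829, 777 and 921 CPM in t-DHEA livers. The groups overlapped only in that t-DHEA rat 3 lay at the level of t-PBS rat 3, and its log2 fold change was -0.24 (SE 0.11), with a 95% interval of the fold from 0.712 to 1.012. Agxt, the transaminase that removes glyoxylate, measured 122, 98.7 and 107 CPM in t-PBS and 116, 152 and 131 CPM in t-DHEA livers. Its log2 fold change was 0.28 (SE 0.13; 95% interval of the fold 0.994 to 1.48), and t-DHEA rat 1 lay inside the t-PBS range. Gls2, the liver glutaminase, measured 147 ± 10.7 CPM in t-PBS and 165 ± 17.7 CPM in t-DHEA. The aspartate transaminases Got1 (132 ± 37.1 and 135 ± 53.5 CPM) and Got2 (409 ± 40.3 and 417 ± 31.8 CPM) and the alanine transaminase Gpt (51.5 ± 4.40 and 48.0 ± 11.4 CPM) differed by less than the spread between rats.

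None of the 6 genes of branched-chain amino acid breakdown met the criteria, a count that lies near the 4.95% of all genes tested. Their log2 fold changes ran from -0.13 (Pcca) to 0.04 (Ivd). Bckdha, Bckdhb and Dbt, which encode subunits of the branched-chain keto acid dehydrogenase, measured 180 ± 10.9, 101 ± 15.9 and 71.8 ± 0.224 CPM in t-PBS and 184 ± 9.45, 97.4 ± 1.95 and 67.8 ± 5.99 CPM in t-DHEA livers (SD, n = 3). Ivd, the isovaleryl-CoA dehydrogenase of leucine breakdown, measured 138 ± 11.4 and 143 ± 9.19 CPM. Pcca and Pccb, the subunits of propionyl-CoA carboxylase, measured 38.6 ± 5.53 and 135 ± 11.4 CPM in t-PBS and 35.2 ± 2.62 and 132 ± 11.9 CPM in t-DHEA.

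Among the methionine and transsulfuration genes, Cth, which releases cysteine from cystathionine, measured 707, 504 and 691 CPM in t-PBS and 351, 616 and 613 CPM in t-DHEA livers. Only t-DHEA rat 1 lay below the t-PBS range, at 55.4% of the t-PBS mean, and the log2 fold change was -0.27 (SE 0.22). Cbs, which makes cystathionine from homocysteine and serine, measured 212 ± 9.26 CPM in t-PBS and 214 ± 29.0 CPM in t-DHEA. Ahcy, which hydrolyses S-adenosylhomocysteine, measured 706 ± 86.2 and 626 ± 30.7 CPM, with a log2 fold change of -0.17 (SE 0.12).

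Summed by role, the groups overlapped in most routes. The summed level of the 39 genes was 17115, 16376 and 18463 CPM in t-PBS and 18087, 15646 and 18029 CPM in t-DHEA livers. In 9 of the 10 role groups the t-DHEA and t-PBS livers overlapped. The lysine and proline group, which holds Aass and Prodh only, was the exception, at 89.9% to 105% of the t-PBS mean in t-PBS and 77.9% to 87.9% in t-DHEA livers.

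**Figure D5:**
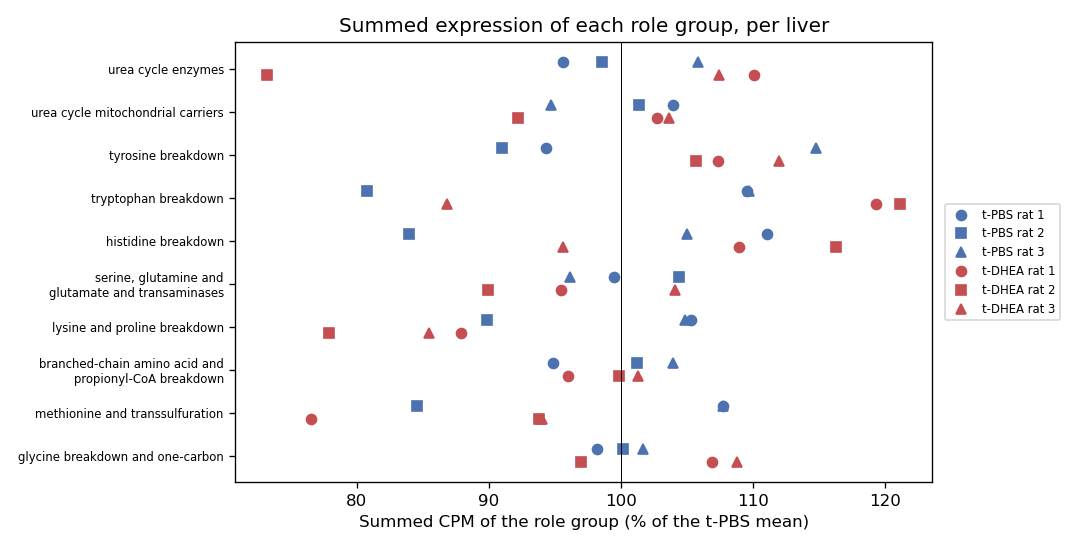
Summed CPM of each of the 10 role groups in each liver, as a percentage of the t-PBS mean of that group (vertical line at 100). The urea cycle enzymes of t-DHEA rat 2 stand at 73.2%, and the livers of the groups overlap in every row except lysine and proline breakdown.

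Of 61 other amino acid breakdown enzymes listed, 59 matched a row and 56 were tested. Of these, 1 met the criteria, higher in t-DHEA, and none was lower, beside 4.95% of all genes tested. When a liver was left out, the count fell to 0 for t-PBS rat 2, was 4 for t-DHEA rat 1, and was 2 when t-DHEA rat 2 was left out and 3 in the other fits of this kind. Their median log2 fold change was 0.026, and 2 passed 0.05 before adjustment (Amdhd1 and Hibch). The gene that met the criteria was Amdhd1, which acts after Hal and Uroc1 in histidine breakdown. It measured 120, 141 and 195 CPM in t-PBS and 247, 505 and 165 CPM in t-DHEA livers, and the groups overlapped at t-DHEA rat 3. Its log2 fold change was 1.005 (SE 0.36; adjusted p = 0.930, edgeR), which was 0.44 and did not meet the criteria without t-DHEA rat 2. Nor did Amdhd1 meet the criteria without t-PBS rat 1 (0.86) or t-PBS rat 2 (0.96).

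Of 16 regulators of these enzymes, 1 met the criteria, a count that lies near the 4.95% of all genes tested. Klf15, a Krüppel-like factor known to promote amino acid breakdown in liver and muscle, measured 42.5, 41.4 and 53.6 CPM in t-PBS and 74.7, 62.2 and 78.3 CPM in t-DHEA livers. All t-DHEA livers lay above all t-PBS livers, with a log2 fold change of 0.65 (SE 0.13; adjusted p = 0.796, edgeR), and Klf15 met the criteria whichever liver was left out. The median of the 16 was -0.025.

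Other programmes that act on these genes were read beside Tat, Sds and Klf15. Of 6 glucocorticoid-responsive genes none met the criteria and none passed 0.05 before adjustment. Of all genes tested 4.95% met the criteria, so a count of 0 among 6 genes lies near the background. The lowest of the 6 in the edgeR test was Fkbp5 (log2 fold change -0.16, adjusted p = 0.986). Of 14 genes of the fasting and feeding response, 1 met the criteria, a count that also lies near this background. It was the lipogenic regulator Srebf1, higher in t-DHEA (log2 fold change 0.50). Srebf1 no longer met the criteria without t-DHEA rat 1 (log2 fold change 0.25), t-PBS rat 1 (0.41), t-PBS rat 2 (0.43) or t-DHEA rat 3 (0.53), in limma on FPKM, or with the replicate block.

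All 9 clock genes in phase with Dbp had a positive log2 fold change, with a median of 0.67. Of these, 4 met the criteria: Per3 (1.09), Per2 (0.84), Dbp (1.16) and Tef (0.67). This list, like the others, was chosen with earlier results of these data known. Of all genes tested, 6148 of 12210 had a positive log2 fold change, 1.97% met the criteria higher in t-DHEA and 2.98% met them lower. When a liver was left out, Dbp met them in 2 of 6 fits (without t-PBS rat 3 and t-DHEA rat 2) and Per2, Per3 and Tef in all 6. Their summed level was 87.1%, 87.1% and 126% of the t-PBS mean in t-PBS livers and 165%, 103% and 169% in t-DHEA livers. Of 5 genes in phase with Arntl, Arntl itself met the criteria and was lower (log2 fold change -0.87). The part of clock phase in the values of Tat, Sds, Aass, Gldc and Klf15 was not tested.

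Markers of other cells of the tissue moved with the groups. Of all genes tested, 2.98% met the criteria lower in t-DHEA and 1.97% higher. Of 5 mesothelial markers, 3 met the criteria and were lower in t-DHEA (Msln, Upk3b and Muc16), and the summed level ran from 31.2 to 33.7 CPM in t-PBS and from 1.72 to 25.7 CPM in t-DHEA livers. Wt1 had no count in t-DHEA rat 2. Of 5 bile duct markers 2 met the criteria and were lower (Krt19 and Krt7), with sums of 18.2 to 22.8 CPM and 9.05 to 15.8 CPM, and Krt7 had no count in t-DHEA rat 2. Of 7 stellate cell and fibroblast markers 2 were lower by the criteria (Col1a1 and Col3a1), with sums of 560 to 727 CPM and 461 to 543 CPM. Of 5 red blood cell markers 4 met the criteria and were higher (Hba1, Hba2, Hbb and Hbb-b1, whose copies are near-identical, so the split of reads between them is uncertain), with sums of 241 to 385 CPM in t-PBS and 409 to 819 CPM in t-DHEA livers.

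Among markers of position in the lobule and of other resident cells, few met the criteria, beside 4.95% of all genes tested. None of the periportal markers did, nor did any Kupffer cell or lymphocyte marker. Of 10 pericentral markers Cyp7a1, the rate-limiting enzyme of bile acid synthesis, was higher (log2 fold change 1.62), and of the endothelial markers Kdr was higher (0.36). The summed levels were 4777 to 5322 CPM in t-PBS and 4627 to 6389 CPM in t-DHEA for periportal markers, and 3298 to 4084 CPM and 3626 to 4735 CPM for pericentral markers. They were 475 to 599 CPM and 524 to 711 CPM for Kupffer cell markers, 196 to 307 CPM and 287 to 300.3 CPM for endothelial markers, and 23.0 to 26.9 CPM and 18.9 to 24.9 CPM for lymphocyte markers. The periportal sum was lowest in t-DHEA rat 1 and highest in t-DHEA rat 3. Its marker Pck1, also a fasting and feeding gene, measured 672 and 2334 CPM there. In bulk tissue, fewer cells of a type and less RNA per cell cannot be told apart, and the part of tissue make-up in the differences of the 39 genes was not tested.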

How the data were processed

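Total RNA of 6 rat livers was sequenced as paired-end libraries. According to the study's methods, the authors filtered reads with Seqtk, mapped them to Rnor_6.0 and counted fragments per gene; the submitters' processing notes name HISAT2 2.0.4 and StringTie 1.3.0. The deposited counts carry no normalization, and the deposited FPKM values are those counts per gene length and library total. The annotation release and strand setting are not given in the sources used here, so overlapping and antisense genes are uncertain.

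Groups and rat numbers were taken from the labels for all 6 value columns. No library was a duplicate of another (chi-square per degree of freedom of at least 16.2 between any pair). In R 4.3.3, edgeR 4.0.16 gave TMM factors, its default filter and the quasi-likelihood test on the deposited counts, with Benjamini-Hochberg adjustment over all genes tested. The study's text names edgeR on FPKM, to which a count model was not fitted. The method was tested on simulated data in which 200 genes differed 2-fold, so smaller fold changes were not covered. A count of 0 allows up to 3 counts, 0.21 to 0.243 CPM by liver, for counting error only.

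The 39 genes and all lists were chosen with earlier results of these data known. Of 215 listed genes, 3 matched through an older symbol, 3 did not match (Aldh4a1, Ca5a and Pecam1), and for 4 names with 2 rows the row with more counts was used. Full values were given for urea cycle genes, for genes meeting the criteria, with an unadjusted p below 0.05 or with separated groups; Glud1, Agxt, Tdo2, Hal and Cth were given per liver after their values were seen. Of the other lists, genes meeting the criteria, or else the gene with the lowest p, were named. Alternatives were DESeq2 1.42.0, the likelihood-ratio test, RLE factors, no filter, a minimum of 10 counts per liver, limma 3.58.1 on log2(FPKM + 0.1) or log2(FPKM + 1) with a mean FPKM of at least 0.5, a replicate block by rat number, leaving out single livers and a fold limit of 1.5. Separation of groups with RLE factors and on FPKM was added after seeing the data.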

Additional observations from a re-analysis of the deposited data

How the results depend on the processing

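The median log2 fold change of the 39 genes ran from -0.025 to 0.046 with a liver left out and that of the urea cycle from -0.059 to 0.067. The number of the 39 genes that met the criteria was 2 with DESeq2, 2 with a fold limit of 1.5 and 3 to 4 with a liver left out. With no filter it was 5 (Aass, Agxt, Sds, Shmt1 and Tat), beside 4.52% of all genes, and Gldc was not among them. Tat met the criteria in each of these. Of all genes, 414 (3.39%) met the criteria with DESeq2, 275 with the fold limit of 1.5, and 514 to 747 with a liver left out. For the other amino acid breakdown enzymes the number was 0 with DESeq2, 2 without a filter and 0 to 4 with a liver left out. Glud1 met the criteria in limma on FPKM with either pseudocount and without t-DHEA rat 3, Agxt when no filter was used or when t-PBS rat 1 or t-DHEA rat 1 was left out, and Ahcy without t-PBS rat 2. Groups of 4 genes with RLE factors and 5 on FPKM did not overlap. The share over all genes was computed with TMM factors only, where it was 10.1%.

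With the rat number as a replicate block, 2 of the 39 genes (Tat and Aass), 539 of all genes and 0 of the other enzymes met the criteria, and Sds had a log2 fold change of 1.17. Over all genes tested, same-numbered rats did not vary together (correlations of -0.054, -0.062 and -0.045), and no rat correlated best with its own number. With 3 livers per group, each centred on its group mean, these correlations cannot exclude a pairing that acts on fewer genes.

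The sign turned for genes near 0. In limma on FPKM, with either pseudocount, Otc was at -0.025, Nags at -0.024 and Slc25a15 at -0.015. With a liver left out the log2 fold change ran from -0.20 to 0.13 for Cps1, -0.024 to 0.051 for Otc, -0.014 to 0.27 for Asl, -0.043 to 0.34 for Arg1, -0.096 to 0.098 for Nags and -0.028 to 0.067 for Slc25a15. The cause of these changes was not tested. Counting error exceeded the spread between rats in 1 or both groups for Kmo, Bckdhb, Dbt and Amt, whose small spreads and differences are limited by depth.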

Other observations

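The spread between rats of a group was read against genes of like depth. The median coefficient of variation of the 39 genes was 8.55% in t-PBS and 10.8% in t-DHEA livers. Over all genes tested it was 11.5% and 12.5%, but over the 6229 genes with at least 141 counts in every liver, the lowest count of the 39 and a limit chosen after seeing the data, it was 8.41% and 9.03%. Sds had the highest coefficient of variation of the 39 in t-DHEA, 95.4%, and spanned a 10.5-fold range over the 6 livers. These are descriptions, with no test.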
